A study of Rattus norvegicus with 4 samples.

Results

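Transcripts of the proteasome, the barrel-shaped protease complex that degrades ubiquitin-tagged proteins, were measured in the retroperitoneal fat of obese and lean rats. The genes were taken by name: every row of the deposited table with exactly 1 gene symbol that begins with Psma, Psmb, Psmc, Psmd, Psme or Psmg and a number, which gave 54 rows of 47 genes among the 14506 genes tested. Of these, 44 were assigned a place in the complex. They are 13 standard core subunits, 3 immunoproteasome subunits, the thymus subunit Psmb11, 17 regulatory particle subunits, 4 activators and 6 assembly chaperones. The other 3 (Psma3l, Psmc3ip and Psme3ip1) were taken in by their symbols alone. RefSeq lists Psma3l as a synonym of Psma3, an alpha subunit of the core, but its row is not counted with the core below. No row carried the symbol Psma3, Psma8 or Psmg3 alone, so these symbols were not analysed here.

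The animals were male rats of WNIN/Ob, a strain with obese and lean phenotypes, 4 months old, untreated and fed a stock diet. The obese group held 2 rats and the lean group 2 rats, and each rat gave 1 array. The label text names no allele, so the phenotypes are given as labelled. Values are log2 of the deposited intensity, differences are obese minus lean on that scale, and errors of differences are limma's moderated SE (n = 2 per group). The small number of arrays limits precision, and an exact permutation test of 2 rats against 2 cannot give a two-sided p below 0.333.

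The proteasome has a core particle of stacked rings, in which alpha subunits form the gate and beta subunits carry the proteolytic sites. The regulatory particle caps the core, where non-ATPase subunits bind and remove ubiquitin and an ATPase ring unfolds the substrate and threads it inward. Interferon-gamma induces 3 beta subunits that replace the standard catalytic ones in newly built cores, the immunoproteasome, and also the activator subunits Psme1 and Psme2. Immune cells carry much immunoproteasome, and fat contains immune cells beside adipocytes.

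Most proteasome genes had higher values in the obese rats, but no single gene passed the test. The difference was above 0 for 44 of 47 members, with a median of 0.51 (1.43-fold) and a range from -0.25 (Psme3ip1) to 1.22 (Psmd14). By limma with Benjamini-Hochberg adjustment over all genes, 0 of 47 members were called at an adjusted p under 0.05, where 0.841% of all genes were called, and the smallest adjusted p of a member was 0.143 (Psmb6). At an unadjusted p under 0.05, 12 members were higher and 0 lower, which is 25.5% of members, where 9.93% of all genes were higher at that threshold. The obese pair lay wholly above the lean pair for 31 members (66.0%), where the share over all genes was 26.4%. It lay wholly below for 1 member, Psma7, where the share over all genes was 21.3%. Over all genes, 1441 were higher and 773 lower at an unadjusted p under 0.05, against 1177 and 1084 with arrays centred on their medians, and that centring left 10 members higher and 0 lower.

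The level of a gene on these arrays bears on that count. Lean rat 2 had the narrowest spread of values, with an interquartile range of 2.05 over all genes against 2.54 in lean rat 1, and 2.65 and 2.73 in the obese rats. Among the brightest 25% of genes, 72.0% had a positive difference, the median difference was 0.28, and 42.2% had an obese pair wholly above the lean pair. The members' shares of 93.6% and 66.0% thus stand beside 72.0% and 42.2% for bright genes as well as beside 50.1% and 26.4% for all genes. Likewise, the 25.5% of members higher at an unadjusted p under 0.05 stand beside 16.7% of the brightest 25% and 9.93% of all genes. After quantile normalization over all rows, 42 of 47 members were higher with a median of 0.44, and the pairs were apart in that direction for 27 members (57.4%), 28.6% of all genes and 32.1% of the brightest 25%.

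**Figure D1:**
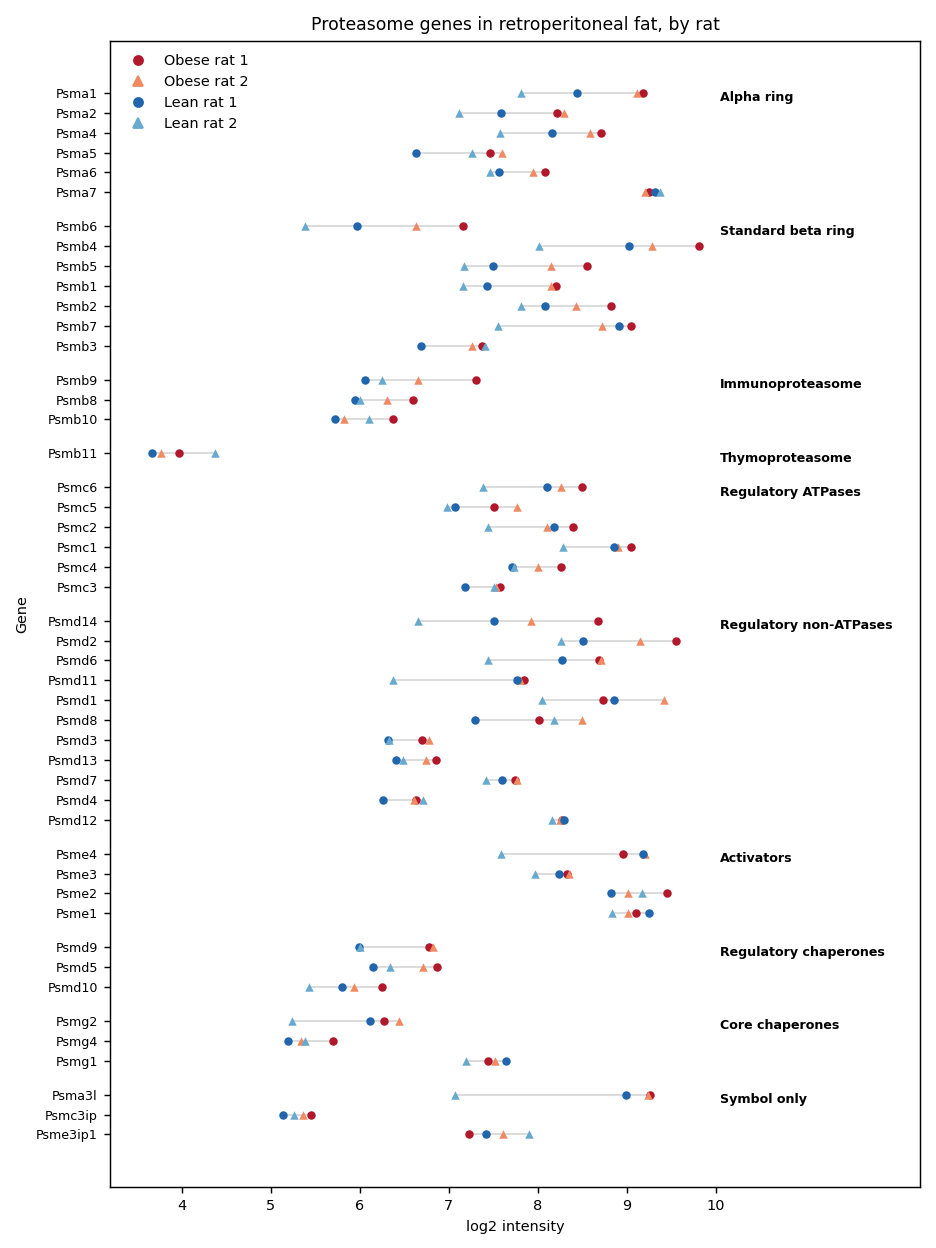
Log2 intensity (x axis) of each of the 47 proteasome genes (y axis) in each rat, grouped by place in the complex and sorted by difference within a group. Points are single arrays, red and orange for the obese rats and blue for the lean rats. The red and orange points lie right of both blue points for 31 genes, and lean rat 2 (light blue triangles) is far to the left for Psma3l, Psme4, Psmd11 and Psmb7.

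The standard core had the largest median of the groups compared, 0.78 over 13 subunits. The difference was above 0 in 12 of 13 (92.3%), and the obese pair lay wholly above in 10 (76.9%). Those shares were 50.1% and 26.4% over all genes, and 72.0% and 42.2% over the brightest 25%. No test compared the groups of subunits with each other. Of the 12 members at an unadjusted p under 0.05, 7 were standard core subunits, which is 53.8% of that group. The share higher at that threshold was 9.93% over all genes and 16.7% over the brightest 25%. The alpha ring, whose subunits dock the regulatory caps, had a median of 0.69 over 6 genes, without Psma3l. Psma1 had 9.18 and 9.12 in the obese rats, against 8.44 and 7.81 in the lean rats. That is a difference of 1.03 ± 0.33 (adjusted p = 0.221), with the groups apart. Psma2 had 8.22 and 8.29 in the obese rats and 7.58 and 7.12 in the lean rats (0.91 ± 0.30, adjusted p = 0.234). Psma4 was at 0.78, Psma5 at 0.59 and Psma6 at 0.50, each with the obese pair wholly above. Psma7 stood apart from the rest of its ring, with 9.25 and 9.21 in the obese rats and 9.31 and 9.37 in the lean rats, a difference of -0.11 ± 0.30 that is smaller than its error.

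The standard beta ring had a median of 0.88 over 7 genes, all above 0. Its 3 catalytic subunits are Psmb5 with chymotrypsin-like, Psmb6 with caspase-like and Psmb7 with trypsin-like activity. Psmb6 had 7.16 and 6.63 in the obese rats, against 5.97 and 5.38 in the lean rats. The difference was 1.22 ± 0.32 (2.32-fold, adjusted p = 0.143). It was 1.51 when lean rat 1 was left out, against 0.92 when lean rat 2 was. A second row named Psmb6 had 6.34 and 5.52 in the obese rats and 5.01 and 5.25 in the lean rats, a difference of 0.80 in the same direction. Psmb5 had 8.55 and 8.15 in the obese rats, against 7.49 and 7.18 in the lean rats (1.02 ± 0.31, adjusted p = 0.203). For these catalytic subunits the groups did not overlap. Psmb7 had 9.05 and 8.72 in the obese rats and 8.91 and 7.55 in the lean rats, and here the groups overlapped. Its difference of 0.65 ± 0.45 was 1.33 without lean rat 1 and -0.031 without lean rat 2.

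Among the structural beta subunits, Psmb4 had 9.81 and 9.29 in the obese rats and 9.03 and 8.01 in the lean rats (1.03 ± 0.41, adjusted p = 0.294). Psmb1 had 8.21 and 8.15 in the obese rats and 7.43 and 7.16 in the lean rats (0.88 ± 0.29, adjusted p = 0.224), with rats of a group close together. Psmb2 was at 0.68 ± 0.31 with groups apart. Psmb3 was at 0.27 ± 0.32 with groups that overlapped, and at -0.086 without lean rat 1.

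The immunoproteasome subunits, Psmb8, Psmb9 and Psmb10, were above 0 by a median of 0.47. At an unadjusted p under 0.05, 1 of 3 (33.3%) was higher, where 9.93% of all genes were. Psmb9 had 7.31 and 6.65 in the obese rats, against 6.06 and 6.26 in the lean rats (0.82 ± 0.30, adjusted p = 0.269). Psmb8 had 6.60 and 6.30 in the obese rats and 5.95 and 6.01 in the lean rats (0.47 ± 0.25, adjusted p = 0.413). The groups were apart for both. Psmb10 had 6.38 and 5.83 in the obese rats and 5.73 and 6.10 in the lean rats, so the groups overlapped (0.19 ± 0.29, adjusted p = 0.801). In all 3 the first obese rat was the higher of the obese pair, by a median of 0.55. The first obese rat was also the higher in 7 of 7 standard beta subunits, by a median of 0.40, and in 11 of 13 standard core subunits, by a median of 0.12. The thymus subunit Psmb11, normally restricted to cortical epithelium of the thymus, had 3.97 and 3.76 in the obese rats and 3.67 and 4.38 in the lean rats. It was the only member not above the 90th percentile of 188 olfactory and vomeronasal receptor genes on every array, and its difference of -0.16 therefore carries little information.

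In the rows kept, each immunoproteasome subunit had a smaller difference than the standard subunit whose site it takes, as the plot of the 3 pairs shows. Psmb8 was at 0.47 and Psmb5 at 1.02, Psmb9 at 0.82 and Psmb6 at 1.22, and Psmb10 at 0.19 and Psmb7 at 0.65. The second row of Psmb6, at 0.80, was not above Psmb9, so the order of that pair depends on the row used. The gap between the subunits of a pair was -0.54, -0.39 and -0.46, immunoproteasome subunit minus standard subunit. By the exact two-sided permutation test over the 4 rats, p was 0.333, 0.667 and 1.0 for these 3 pairs, and 1.0 for each after adjustment over the 3. With 0.333 the smallest p possible, this test could not show a shift between the subunit types. With a rat left out, the gap ran from -0.73 to -0.35 for Psmb8, from -0.79 to -0.00041 for Psmb9 and from -1.33 to 0.41 for Psmb10. It came closest to 0 or turned without lean rat 2.

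**Figure D2:**
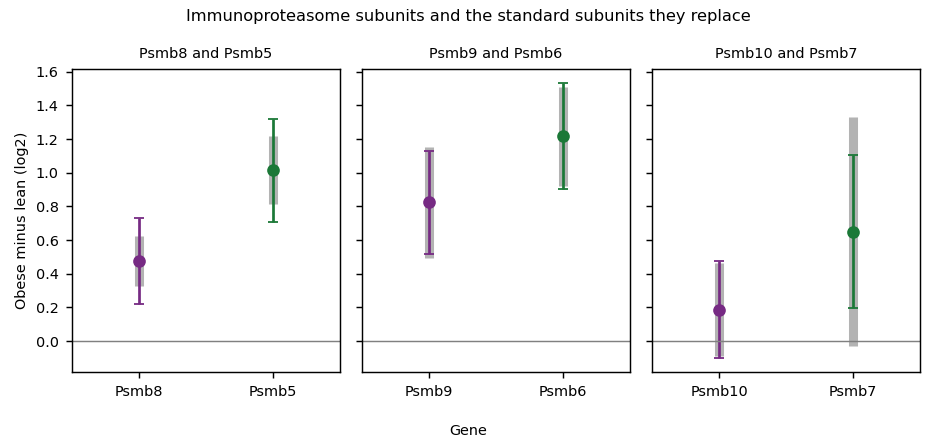
Obese minus lean difference on the log2 scale (y axis) of each immunoproteasome subunit (purple, left) and the standard subunit it replaces (green, right). Points are the differences over 2 obese and 2 lean rats, whiskers are 1 SE, and grey bars span the values with each rat left out in turn. Each purple point lies below its green partner, and the grey bar of Psmb7 runs from -0.031 to 1.33.

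Promoters were matched by gene ID in the RefSeq table of assembly GRCr8 for 41 of 47 members, each from 250 bases before to 50 after the start of the gene. Those of the immunoproteasome genes and of Psmb6 are shown. Psmd14 and Psmb6 had the largest differences among members at an unadjusted p under 0.05, but Psmd14 had no matched promoter. Psmb8 (chr20:4656982-4657281, minus strand) and Psmb9 (chr20:4668750-4669049, plus strand) lie on the same chromosome. Psmb10 is at chr19:50743243-50743542 (minus strand) and Psmb6 at chr10:55737638-55737937 (plus strand). Capitals mark matches, on either strand, to TGACNNNGC (antioxidant response element, bound by Nfe2l1 and Nfe2l2), TTCNNNGAA (gamma-activated site), TTCNNTTTC (interferon-stimulated response element) and CCAAT.
Psmb8: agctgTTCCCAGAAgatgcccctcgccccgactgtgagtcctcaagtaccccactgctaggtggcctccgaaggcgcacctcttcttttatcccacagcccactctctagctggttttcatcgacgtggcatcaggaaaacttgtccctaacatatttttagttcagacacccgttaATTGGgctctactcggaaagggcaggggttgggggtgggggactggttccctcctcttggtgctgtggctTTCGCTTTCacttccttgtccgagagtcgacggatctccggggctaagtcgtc
Psmb9: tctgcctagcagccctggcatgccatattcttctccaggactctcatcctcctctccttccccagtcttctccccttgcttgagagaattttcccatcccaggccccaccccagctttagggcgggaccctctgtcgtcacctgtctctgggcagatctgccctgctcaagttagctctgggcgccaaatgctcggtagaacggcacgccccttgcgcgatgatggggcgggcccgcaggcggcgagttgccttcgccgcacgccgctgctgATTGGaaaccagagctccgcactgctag
Psmb10: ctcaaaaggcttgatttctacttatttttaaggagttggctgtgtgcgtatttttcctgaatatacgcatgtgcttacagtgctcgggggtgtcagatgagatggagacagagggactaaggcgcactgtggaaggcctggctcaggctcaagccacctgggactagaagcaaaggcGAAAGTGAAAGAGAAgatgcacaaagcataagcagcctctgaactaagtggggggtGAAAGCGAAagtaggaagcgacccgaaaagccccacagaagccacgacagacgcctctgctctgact
Psmb6: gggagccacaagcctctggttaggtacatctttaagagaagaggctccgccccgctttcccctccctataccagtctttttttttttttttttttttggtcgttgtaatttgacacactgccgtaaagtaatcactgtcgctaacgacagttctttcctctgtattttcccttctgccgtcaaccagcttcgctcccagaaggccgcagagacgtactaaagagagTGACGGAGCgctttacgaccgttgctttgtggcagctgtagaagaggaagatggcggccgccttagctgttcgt
In Psmb8 the capitals are, from left to right, a gamma-activated site match, a CCAAT match on the other strand and an interferon element match. In Psmb9 they mark 1 CCAAT match on the other strand. Psmb10 holds 3 interferon element matches on the other strand, of which the first 2 overlap in 1 run. Psmb6 holds 1 antioxidant response element match. A match is a run of letters and not a shown binding site.

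Over all 41 matched promoters, the antioxidant response element letters were in 7 (Psmb2, Psmb5, Psmb6, Psmd1, Psmd3, Psmd9 and Psme4), which is 17.1%, where 12.2% of 27457 promoters of the same length held them. The interferon element letters were in 9 (22.0%, where all promoters had 9.50%). These were Psma4, Psmb2, Psmb3, Psmb8, Psmb10, Psmd7, Psmd11, Psme2 and Psmg4, so standard core and regulatory particle genes were among them. The gamma-activated site was in 4 (9.76%, all promoters 8.68%) and CCAAT in 20 (48.8%, all promoters 37.7%). Promoters with the antioxidant letters belonged to genes with differences from 0.42 (Psmd3) to 1.22 (Psmb6), all 7 above 0, as were most members without them.

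The regulatory particle had a median difference of 0.44 over 17 subunits, all 17 above 0. The obese pair lay wholly above for 12 (70.6%), where the share was 26.4% of all genes and 42.2% of the brightest 25%. The ATPases, Psmc1 to Psmc6, kept within a narrow range, from 0.21 (Psmc3) to 0.63 (Psmc6), and 0 of 6 reached an unadjusted p under 0.05. Psmc6 had 8.50 and 8.26 in the obese rats and 8.10 and 7.39 in the lean rats. Psmc5 had 7.51 and 7.77 in the obese rats and 7.07 and 6.98 in the lean rats (0.61 ± 0.28, adjusted p = 0.342). Psmc1, Psmc2 and Psmc4 were at 0.41, 0.44 and 0.41. A second row of Psmc4 was at 0.66, above the range of the rows kept. When the rows of a gene were averaged, the median of the regulatory particle was 0.53. Of the ATPases, 5 had groups that did not overlap and Psmc2 had groups that did.

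The 11 non-ATPase subunits varied more, from 0.033 to 1.22 with a median of 0.51. At an unadjusted p under 0.05, 3 (27.3%) were higher, where 9.93% of all genes and 16.7% of the brightest 25% were. Psmd14, the deubiquitinase that cuts ubiquitin chains from substrates, had 8.68 and 7.92 in the obese rats, against 7.50 and 6.65 in the lean rats. Its difference of 1.22 ± 0.40 (2.33-fold, adjusted p = 0.224) had the highest value of all members, with groups apart. Psmd2, a large scaffold of the base that docks ubiquitin-binding proteins, had 9.56 and 9.15 in the obese rats and 8.51 and 8.27 in the lean rats (0.97 ± 0.31, adjusted p = 0.224). Psmd6, a lid subunit, had 8.69 and 8.71 in the obese rats and 8.28 and 7.44 in the lean rats (0.85 ± 0.35, adjusted p = 0.315). At the other end was Psmd12, a lid subunit with 8.27 and 8.25 in the obese rats and 8.29 and 8.16 in the lean rats (0.033 ± 0.29). It was below 0 when arrays were centred on their medians (-0.041) or quantile-normalized (-0.13). Psmd4, a ubiquitin receptor, was at 0.13 ± 0.28, and Psmd7, the partner of Psmd14, at 0.25 ± 0.28. Of the rest, Psmd1 was at 0.62, Psmd3 at 0.42, Psmd8 at 0.51, Psmd11 at 0.74 and Psmd13 at 0.35. Psmd11, a lid subunit, had 7.84 and 7.80 in the obese rats and 7.77 and 6.38 in the lean rats, so lean rat 1 was close to the obese pair and lean rat 2 far below it. Its difference was 1.44 when lean rat 1 was left out, and 0.047 when lean rat 2 was.

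**Figure D3:**
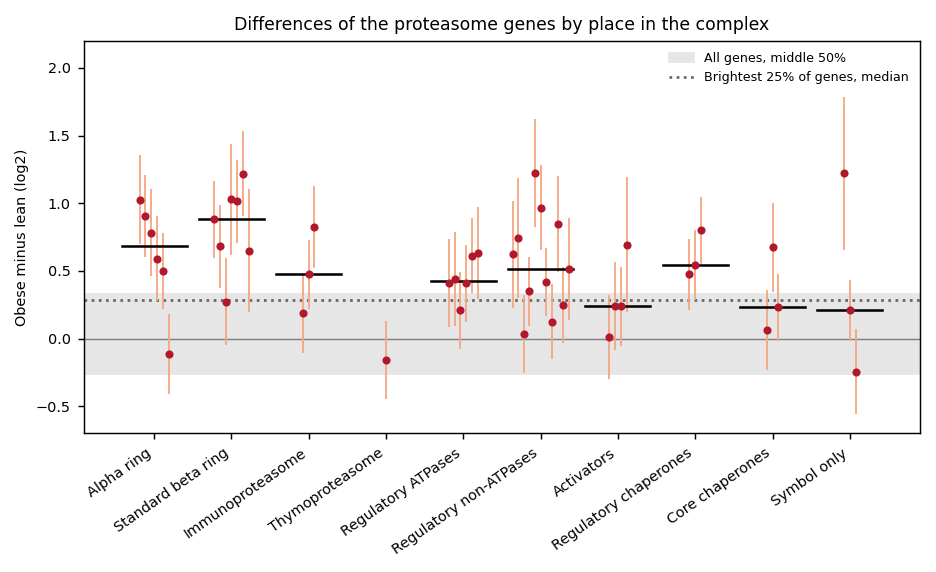
Obese minus lean difference on the log2 scale (y axis) of each proteasome gene, by place in the complex (x axis), with whiskers of 1 SE and black bars for group medians. The grey band holds the middle 50% of all genes, from -0.26 to 0.33, and the dotted line is the median of the brightest 25% of genes (0.28). The medians of the standard beta ring (0.88) and the alpha ring (0.69) lie above those of the regulatory ATPases (0.42) and the activators (0.24).

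The activators, which open the core without ubiquitin, had a median of 0.24, and 0 of 4 reached an unadjusted p under 0.05. Psme1 had 9.10 and 9.01 in the obese rats and 9.25 and 8.84 in the lean rats (0.013 ± 0.31, adjusted p = 0.992), and was below 0 when centred on array medians (-0.061) or quantile-normalized (-0.19). Psme2, its partner in the interferon-inducible ring, had 9.45 and 9.02 in the obese rats and 8.82 and 9.17 in the lean rats (0.24 ± 0.32, adjusted p = 0.768). The groups overlapped for both. A second row of Psme1 was at 0.20 and a second row of Psme2 at 0.29. Psme3, which forms a nuclear ring of its own kind, was at 0.24 ± 0.29 with 8.33 and 8.36 in the obese rats and 8.24 and 7.97 in the lean rats. Psme4, the large single-chain cap, had 8.96 and 9.20 in the obese rats, against 9.18 and 7.59 in the lean rats. Its difference of 0.69 ± 0.50 became 1.49 when lean rat 1 was left out, and -0.10 when lean rat 2 was.

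The chaperones that help build the regulatory particle had a median of 0.54. Psmd9, 1 of these, had rats that lay close together within each group, with 6.78 and 6.82 in the obese rats and 5.99 and 6.01 in the lean rats. That difference, 0.80 ± 0.25 (1.74-fold, adjusted p = 0.212), stayed between 0.78 and 0.82 with any rat left out. Psmd5 was at 0.54 ± 0.26 and Psmd10, also known as gankyrin, at 0.48 ± 0.26, both with groups apart. Of the chaperones of the core, Psmg2 was at 0.68 ± 0.33, with 1.12 without lean rat 1 and 0.23 without lean rat 2. Psmg4 was at 0.23 ± 0.25, and Psmg1, the partner of Psmg2 in an early assembly step, was at 0.062 ± 0.29. Psmg1 was below 0 when centred on array medians (-0.012) or quantile-normalized (-0.093).

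Of the genes taken in by symbol alone, Psma3l is listed by RefSeq as a synonym of Psma3, and it was not counted in the alpha ring. Its row had 9.27 and 9.24 in the obese rats and 8.99 and 7.07 in the lean rats (1.22 ± 0.56, adjusted p = 0.350). A row annotated to both Psma3l and Psma3, left out of the fit over single-symbol rows, had 9.92 and 10.2 in the obese rats and 10.2 and 8.56 in the lean rats. In both rows lean rat 2 was low and lean rat 1 close to the obese rats, so the difference of Psma3l became 2.18 when lean rat 1 was left out, and 0.26 when lean rat 2 was. Psmc3ip, a meiotic recombination factor named for its binding to Psmc3, was at 0.21 ± 0.23. Psme3ip1, which binds Psme3, was at -0.25 ± 0.31, and at 0.00088 without lean rat 2. Of the 7 members with a second row, 6 had both rows in the same direction, and the exception was Psma6, whose second row had 3.75 and 4.05 in the obese rats and 4.09 and 4.08 in the lean rats.

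The lean rats differed from each other more than the obese rats did. The median absolute gap over the 47 members was 0.16 between the obese rats and 0.41 between the lean rats. For 22 of 47 members the gap between the lean rats exceeded the difference between the phenotypes, as it did for 8474 of all 14506 genes. Over all genes the median absolute gap was 0.21 between the obese rats and 0.36 between the lean rats. Lean rat 1 was above lean rat 2 by 1.92 for Psma3l, 1.60 for Psme4, 1.39 for Psmd11 and 1.36 for Psmb7, and below it by 0.89 for Psmd8. Members with larger positive gaps between the lean rats had larger differences between the phenotypes (Pearson's r = 0.57 and Spearman's rho = 0.61 over 47 genes, a description across genes that share the same 4 arrays). Both quantities contain the lean values, so a low value in lean rat 2 raises both. Over all 14506 genes the values were 0.06 and 0.33.

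**Figure D4:**
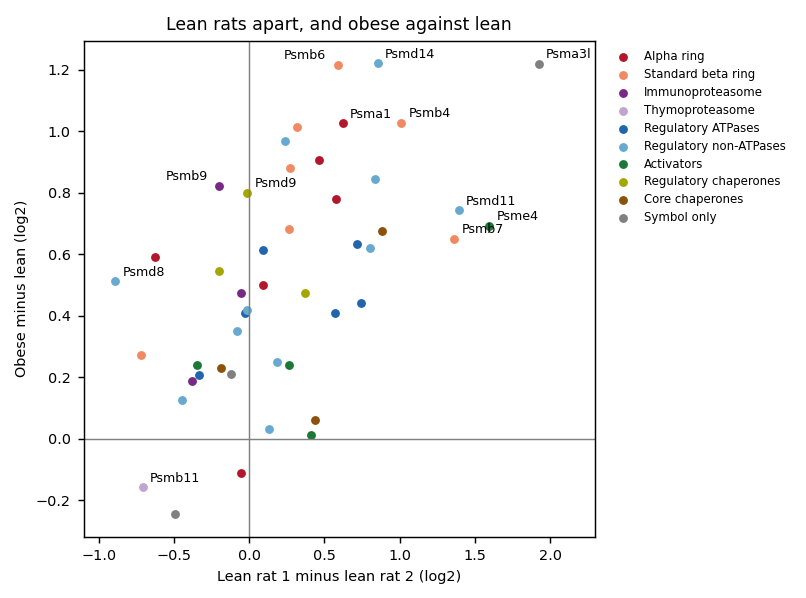
Gap between the lean rats (lean rat 1 minus lean rat 2, log2, x axis) against the difference between phenotypes (obese minus lean, log2, y axis) for the 47 proteasome genes, coloured by place in the complex. Psma3l, Psme4, Psmd11 and Psmb7 lie far right with gaps of 1.36 to 1.92, and Psmd9, with a gap of -0.011, has a difference of 0.80. Both axes contain the lean values.

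Markers of other cells also differed between the rats. In bulk tissue, fewer cells of a type and less RNA per cell cannot be told apart. Of 17 skeletal muscle markers measured, 0 were higher in the obese rats. Their summed intensity was 995 and 754 in the obese rats, and 46938 in lean rat 1 but 989 in lean rat 2. The differences furthest from 0 were those of Myh1 (-3.51) and Myh4 (-3.25). With lean rat 1 left out, the muscle markers had a median of -0.17, and the proteasome members had a median of 0.66 with 41 of 47 higher. Without lean rat 1, 6 members were called (Psma1, Psma3l, Psmb6, Psmd11, Psme4 and Psmg2), where 7.45% of all genes were called. In that fit the single lean rat is assumed to vary like the obese pair. Of 15 macrophage markers, 14 were higher and 7 were called, among them Spp1 (4.07) and Lyz2 (3.92), and the summed intensity was 15793 and 10763 in the obese rats against 2916 and 3107 in the lean rats. Of 12 lymphocyte markers, 5 were higher and 7 lower, with a median of -0.063. They summed to 1360 and 759 in the obese rats and 494 and 491 in the lean rats. The higher sum came mostly through Cd4 (1.83), which rat macrophages also express, while Cd79b was at -0.57. Of 13 adipocyte markers, all measured, 0 were called, and they summed to 24431 and 30441 in the obese rats and 20967 and 21849 in the lean rats, with Lep at 1.56 and Cfd at -0.83. The part of these cells in the proteasome differences was not tested.

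Genes that work with the proteasome were described from lists of their own. Of 9 measured partners that assemble, dock or regulate the complex, 0 were called and 2 (22.2%) were higher at an unadjusted p under 0.05. The list median was 0.50. Higher at that threshold were 9.93% of all genes and 16.7% of the brightest 25%. Sem1, a small subunit of the lid, had 6.96 and 6.67 in the obese rats and 5.93 and 5.72 in the lean rats (0.99 ± 0.26, adjusted p = 0.150). Zfand2a, a stress-induced protein that docks on the proteasome, was at 0.99 ± 0.30. Of 7 regulators of proteasome transcription, 0 were called and 0 reached an unadjusted p under 0.05 (median 0.17). That median turned to -0.034, with 3 of 7 higher, when lean rat 2 was left out, and was 0.015 with quantile normalization. Nfe2l1, the factor that raises proteasome transcription when the complex is impaired, was at 0.28 ± 0.35, with 9.17 and 9.19 in the obese rats and 9.28 and 8.53 in the lean rats, and Mafg was at 0.19 ± 0.25. Of 11 genes of ubiquitin activation and shuttling, 0 were called (median 0.33, 0.84 with lean rat 1 left out and 0.16 with quantile normalization). At an unadjusted p under 0.05, 2 (18.2%) were higher, near the 16.7% of the brightest 25% of genes. These 2 were the shuttle protein Ubqln1 (1.09 ± 0.30, adjusted p = 0.164) and the unfolding ATPase Vcp (0.88 ± 0.30, adjusted p = 0.250).

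Among 10 genes of MHC class I antigen processing, which uses the peptides that proteasomes make, 0 were called and 0 reached an unadjusted p under 0.05 (median 0.21, 0.083 with obese rat 1 left out and 0.090 with quantile normalization). Tapbp was at 0.50 ± 0.32 and Tap1, a peptide transporter subunit, at 0.34 ± 0.27. Among 12 interferon response genes, 0 were called and 1 (8.33%) was higher at an unadjusted p under 0.05, where 9.93% of all genes were. The list median was 0.13. That median turned to -0.33, with 4 of 12 higher, when lean rat 1 was left out, and was 0.45, with 11 of 12 higher, when lean rat 2 was. The 1 gene at an unadjusted p under 0.05 was Ifngr1, a chain of the interferon-gamma receptor. It had 9.13 and 8.87 in the obese rats and 8.23 and 7.81 in the lean rats (0.98 ± 0.31, adjusted p = 0.220). Irf8, a transcription factor of myeloid cells, was at 0.67 ± 0.30. Ifng, named after its values were seen because it induces the immunoproteasome, had 3.31 and 3.49 in the obese rats and 3.58 and 4.12 in the lean rats, all below the 90th percentile of receptor genes on the same array.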

How the data were processed

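The authors deposited a normalized intensity for every probe set of each array. RMA, a method that corrects background and quantile-normalizes, is named in the submitters' processing notes. Version and genome build were not given in the sources used here. Values were judged linear from their range. As deposited, the arrays did not share a common distribution. The median intensity over all rows was 41.0 in lean rat 1, 44.5 in lean rat 2 and 39.9 in each obese rat. The interquartile range of log2 values over genes was 2.05 in lean rat 2 and 2.73 in obese rat 2. The name of the method therefore does not establish that these 4 arrays were quantile-normalized together.

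Log2 was taken without a pseudocount, and no filter on low values was applied. Of 29214 rows, 15310 had exactly 1 symbol, 323 several and 13581 none in the platform annotation. The row with the highest mean over the 4 arrays was kept per gene. The obese-lean difference was fitted in R 4.3.3 by limma 3.58.1 (lmFit, eBayes with a variance trend), adjusted by Benjamini-Hochberg over 14506 genes, and the procedure was tested on simulated data. Groups came from sample titles, and each sample is 1 rat. The brightest 25% of genes are those of highest mean over the arrays. Named genes are the immunoproteasome and standard catalytic subunits, the activators, the 3 highest and 3 lowest differences of each other group, the genes taken by symbol alone, and of other lists the 2 of smallest p or, for cell types, of largest difference. Ifng and the remaining members were added after their values were seen. Members and lists were chosen with earlier results of these data known. Alternatives are in the closing section. Rat numbers recur in both groups, but nothing in the labels pairs the rats. Promoters are RefSeq's.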

Additional observations from a re-analysis of the deposited data

How the results depend on the processing

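No member was called in the main comparison or in any alternative that kept all 4 rats at an adjusted p under 0.05. At an adjusted p under 0.10 the count was 0 in the main comparison, 2 with the rat number as a replicate block and 1 with robust variances. With a rat left out, the count of called members ran from 0 to 6, the count higher at an unadjusted p under 0.05 from 2 (without obese rat 1) to 21 (without lean rat 1) against 12 in the main comparison, and it was 7 without obese rat 2. Without obese rat 1, the share of members higher at that threshold was not above the share of all genes. The excess of the main comparison was therefore absent in that fit, though present in the other fits with a rat left out. The differences without obese rat 1 were above 0 for 42 of 47 members, with a median of 0.46. With the rat number as a replicate block, 0 were called and 13 were higher at an unadjusted p under 0.05. The correlation of same-numbered rats' deviations from their group mean was 0.020 over all genes. With 2 rats per group both pairs give the same value, so it cannot settle the pairing. The numbers are not read as pairs, since nothing in the labels pairs the rats. With quantile normalization 9 and with median centring 10 were higher at that threshold, and the median of the standard core was 0.62 with quantile normalization. Medians with a rat left out ran from 0.39 to 0.66 for all members, 0.63 to 1.07 for the standard core, 0.37 to 0.66 for the regulatory particle, 0.33 to 0.62 for the immunoproteasome, 0.0014 to 0.34 for the activators and 0.31 to 0.61 for the assembly chaperones. Of the 47 members, 37 kept their direction in all alternatives. Psmb11 (0.049), Psmd12 (-0.13), Psme1 (-0.19) and Psmg1 (-0.093) turned with quantile normalization, and Psmd12 (-0.041), Psme1 (-0.061) and Psmg1 (-0.012) with median centring. Members that turned with a rat left out ran from -0.087 to 0.46 (Psmb10), -0.51 to 0.20 (Psmb11), -0.086 to 0.63 (Psmb3), -0.031 to 1.33 (Psmb7), -0.033 to 0.099 (Psmd12), -0.097 to 0.35 (Psmd4), -0.19 to 0.22 (Psme1), -0.49 to 0.00088 (Psme3ip1), -0.10 to 1.49 (Psme4) and -0.16 to 0.28 (Psmg1). Over all genes, 122 were called in the main comparison, 327 with the block, 262 with robust variances, 75 with quantile normalization, 72 with all rows tested, and 268 to 1081 with a rat left out. The causes were not tested.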
